A study of Saccharomyces cerevisiae with 18 samples.

Results

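The genes described here are 10 budding yeast genes of the cell division cycle: the cyclin genes CLN1, CLN2, CLN3, CLB1, CLB2, CLB5 and CLB6, and the inhibitor genes SIC1, CIP1 and WHI5. They were taken by symbol from a table of 7118 features, and all 10 were present and passed the filter on low counts that kept 6833 features. Poly(A) RNA was sequenced from 18 libraries in 6 groups of 3: aged and young msn2 deletion cells, aged and young double deletion cells, and aged and young wild-type cells. All carried the mating type written MAT@ in the labels. The msn2 deletion carried msn2::HphNT1, and the double deletion carried msn2::HphNT1 and msn4::NatNT2. MSN2 and MSN4 encode a pair of related transcription factors that switch on stress genes. Every culture grew in SC YNB medium without biotin, with 2% glucose, 2% MMP and DAPA, at pH 4.5. Aged cells were biotin-labelled mothers kept bound to magnetic beads in a Ministat Aging Device for 24 h, in which flowing medium carries daughters away, and young cells were exponentially growing. One strain stood for each genotype, and nothing in the labels says that replicates came from separate cultures, so p-values measure only the spread between these samples, which may be technical. Aged and young cells also differed in growth mode and in the selection of bead-bound mothers, and these cannot be told apart from age.

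In budding yeast a single cyclin-dependent kinase, Cdc28, drives the cell cycle, and the cyclin bound to it sets what it does. Cln3 starts the process in G1 by acting against Whi5, a repressor of the G1/S transcription factor SBF. SBF and its relative MBF then switch on CLN1 and CLN2, which start budding, and CLB5 and CLB6, which start DNA replication, while CLB1 and CLB2 are made later and drive mitosis. Sic1 holds Clb-bound kinase inactive until it is destroyed at the start of S phase, and is made again at the end of mitosis with the help of the factor Swi5. Cip1 is another inhibitor of Cdc28, known to act on the Cln-bound kinase and to be made under stress. Because most of these transcripts come and go within each cycle, their level in bulk RNA depends both on the level in each cell and on how many cells are at each stage, and these cannot be told apart.

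The promoter stretches of 4 members are shown because they hold the most STRE, SCB or MCB motifs among the 10, with those motifs in capitals. All are 5′ to 3′ on the gene's own strand, from the RefSeq genome of build R64, the build named in the submitters' processing notes. Motifs were searched on both strands in the 800 bases before each start codon: AGGGG for STRE, the site bound by Msn2 and Msn4, CACGAAA or CGCGAAA for the SCB site of SBF, ACGCGT for the MCB site of MBF, and GTAAACA or GTCAACA for forkhead factors. The CGCGAAA and ACGCGT motifs can share at most 1 base, at their ends. CIP1 is shown from 500 to 201 bases before its start codon (chrXVI:527047-527346, plus strand) with STRE and MCB motifs in capitals, and from 100 bases to 1 base before it (chrXVI:527447-527546) with 1 more STRE. SIC1 is shown from 450 to 241 bases before its start codon (chrXII:286370-286579, plus strand) with 2 of its STRE motifs in capitals. CLN2 is shown from 620 to 521 bases before (chrXVI:67135-67234, minus strand) with SCB motifs, and CLB6 from 420 to 361 bases before (chrVII:706862-706921, minus strand) with MCB motifs.
CIP1, far stretch: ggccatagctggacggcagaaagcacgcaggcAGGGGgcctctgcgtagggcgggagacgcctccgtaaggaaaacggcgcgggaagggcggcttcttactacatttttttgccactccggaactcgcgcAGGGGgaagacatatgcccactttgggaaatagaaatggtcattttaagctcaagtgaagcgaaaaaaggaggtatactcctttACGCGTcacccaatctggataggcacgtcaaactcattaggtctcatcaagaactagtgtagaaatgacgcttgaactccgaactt
CIP1, near stretch: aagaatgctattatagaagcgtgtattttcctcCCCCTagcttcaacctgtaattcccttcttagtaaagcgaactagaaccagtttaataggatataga
SIC1: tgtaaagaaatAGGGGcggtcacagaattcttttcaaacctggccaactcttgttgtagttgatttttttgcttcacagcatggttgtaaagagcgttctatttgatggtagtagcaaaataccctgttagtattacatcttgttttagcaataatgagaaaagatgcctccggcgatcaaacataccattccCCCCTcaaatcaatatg
CLN2: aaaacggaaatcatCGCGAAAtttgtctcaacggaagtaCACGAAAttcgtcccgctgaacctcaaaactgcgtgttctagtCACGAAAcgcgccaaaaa
CLB6: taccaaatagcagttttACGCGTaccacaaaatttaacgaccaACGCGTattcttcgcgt
CIP1 and SIC1 each held 3 STRE motifs in the 800 bases, a number or more found in 4.57% of 5997 windows of that length. CLN1 held 2 STRE motifs, and CLN3, CLB1, CLB2 and WHI5 held 1. At least 1 STRE stood in 48.2% of all windows, so 7 of 10 members with the motif is a description only. CLN2 held 3 SCB motifs (at least 3 in 0.283% of windows) and CLB6 held 2 MCB motifs (at least 2 in 0.75%). Forkhead motifs stood in 5 of 10 members, with 2 in CLB2 and 1 each in CLN1, CLB6, CLB1 and WHI5, against at least 1 in 22.8% and at least 2 in 2.9% of windows. A match of letters does not show a bound site.

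In build R64, CLN3 (YAL040C) lies at chrI:65778-67520, CLN1 (YMR199W) at chrXIII:662644-664284 and CLN2 (YPL256C) at chrXVI:64977-66614. The mitotic CLB1 (YGR108W) lies at chrVII:703636-705051 beside the S-phase CLB6 (YGR109C) at chrVII:705359-706501, and CLB2 (YPR119W) at chrXVI:771653-773128 beside CLB5 (YPR120C) at chrXVI:773875-775182. Of the inhibitor genes SIC1 (YLR079W) lies at chrXII:286820-287674, CIP1 (YPL014W) at chrXVI:527547-528692 and WHI5 (YOR083W) at chrXV:479533-480420. These are coding spans. The table also lists YOR082C on the strand opposite to WHI5, so reads of WHI5 and YOR082C could not be told apart if strand was not used.

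Library totals were 4078400 to 7136185 counts in the aged double deletion and 25768602 to 41649952 in the other 15 libraries. Levels are CPM, a library's counts rescaled to a common total, after scaling with TMM factors, which set libraries side by side on the assumption that most genes do not change. The 4 marker genes of MAT alpha cells summed to between 3610 and 6120 CPM in every library, and the 6 marker genes of MAT a cells to between 31.7 and 55.4 CPM. MSN2 stood at 3.61 to 4.46 CPM in aged and 4.2 to 4.43 CPM in young msn2 deletion libraries, and at 3.88 to 4.99 CPM in aged and 2.6 to 4.48 CPM in young double deletion libraries, against 31.7 to 35.4 CPM in aged and 39.3 to 45 CPM in young wild-type libraries. MSN4 stood at 12 to 14.5 CPM in aged and 18.1 to 23.9 CPM in young double deletion libraries, lower than the 48.8 to 53 CPM of aged and 39.6 to 45.1 CPM of young wild type but not near 0. Where in MSN4 those reads lie cannot be seen from a gene count. In msn2 deletion libraries MSN4 stood at 82.5 to 86.9 CPM aged, above aged wild type. In young msn2 deletion libraries it stood at 43.9 to 54.4 CPM, overlapping young wild type.

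Aged and young cells were compared first in each strain, which asks how the cell cycle transcripts differ in mothers after 24 h in the aging device. In all 3 strains CIP1, CLN3, WHI5 and CLB1 rose in aged cells, and CLB5, CLB6 and CLB2 fell. SIC1 fell as well in both deletion strains, and CLN1 rose in the double deletion. A call means an adjusted p under 0.05 (Benjamini-Hochberg, over all 6833 genes) in edgeR's quasi-likelihood test. So 8 of 10 members passed in msn2 deletion, where 69.6% of all genes did: 4 were higher (36.6% of all genes) and 4 lower (33%). In the double deletion 9 of 10 passed, where 61.2% did, with 5 higher (31.2%) and 4 lower (29.9%). Wild type had 7 of 10, where 63.9% passed, with 4 higher (33.3%) and 3 lower (30.6%). Since a majority of all genes passed as well, the count of members is not a result about them, and what follows is about each gene. The median log2 fold change of the members was 0.04 for msn2 deletion, 0.22 for the double deletion and 0.02 for wild type, against 0.03 over all genes each time.

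**Figure D1:**
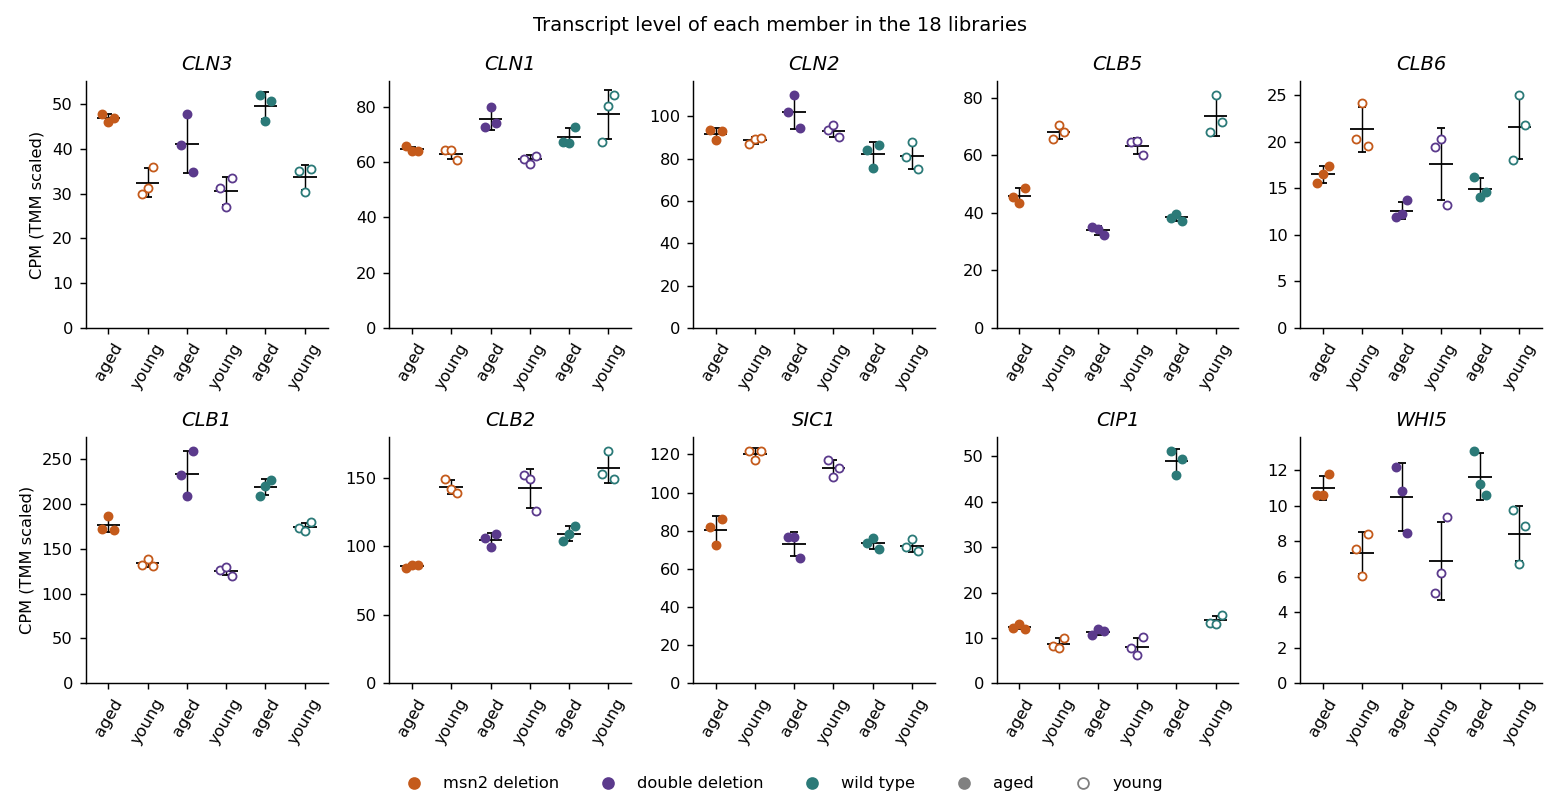
Level of each of the 10 genes in every library, in CPM with TMM scaling on a linear axis from 0, with aged libraries as filled and young libraries as open circles, and the mean and SD of 3 libraries in black. CIP1 stood between 45.9 and 51.3 CPM in aged wild type and at most at 15.1 CPM in any library of the other groups.

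Directions between aged and young cells rest on the scaling. Scaling by library totals alone shifted the all-gene median upwards by 0.59 for msn2 deletion, 0.43 for the double deletion and 0.50 for wild type on the log2 scale, and every member moved with it. Between strains the same step moved it by at most 0.17. Changes are therefore given relative to the bulk of the genes, and the value under library totals is added wherever a call or a direction is lost.

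CLN3, whose product is the first G1 cyclin to act, rose in all 3 strains. In msn2 deletion it stood at 47.8, 45.9 and 46.8 CPM aged and 29.9, 31.3 and 36 CPM young, a log2 fold change of 0.53 ± 0.101 (SE, n = 3 a group, adjusted p = 0.000105 by edgeR). The double deletion had 40.8, 47.7 and 34.7 CPM aged and 31.2, 27.1 and 33.4 CPM young, a change of 0.41 ± 0.11. Wild type had 52, 46.2 and 50.6 CPM aged and 35, 30.4 and 35.5 CPM young, a change of 0.56 ± 0.1 (adjusted p = 8.47e-05). Aged and young libraries did not overlap in any strain. The age effects of CLN3 did not pass a test of their difference between any pair of strains (adjusted p 0.547 to 0.932 by edgeR).

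WHI5, the gene of the repressor that Cln3 acts against, was higher in the same libraries but among the lowest of the 10 in level, so its error is larger. In msn2 deletion it changed by 0.59 ± 0.181 (adjusted p = 0.00713 by edgeR), with 10.6, 10.6 and 11.8 CPM aged and 7.55, 6.05 and 8.42 CPM young. For the double deletion the change was 0.59 ± 0.216 (adjusted p = 0.0227), and the groups overlapped, with 12.2, 10.8 and 8.46 CPM aged and 5.07, 6.23 and 9.35 CPM young. Wild type had 13.1, 11.2 and 10.6 CPM aged and 9.75, 6.72 and 8.83 CPM young, a change of 0.46 ± 0.179 (adjusted p = 0.0325). The double deletion call was lost without young replicate 1 or 2 (0.42 and 0.52) or aged replicate 1 or 2 (0.45 and 0.58), with adjusted p of 0.0541 to 0.146 by edgeR. The wild-type call was lost without young replicate 2 (0.32, adjusted p = 0.16), young replicate 3 (0.49, 0.0526) or aged replicate 1 (0.36, 0.125). With all libraries thinned to the smallest total the WHI5 call was lost in every strain. The values were 0.46 in msn2 deletion, 0.49 in the double deletion and 0.44 in wild type (adjusted p 0.0777 to 0.115 by edgeR). The count of CLN3 divided by that of WHI5 within a library, which needs no scaling, was 4.26 ± 0.273 in aged and 4.46 ± 0.62 in young msn2 deletion (SD, n = 3 each). It was 3.97 ± 0.572 aged and 4.7 ± 1.34 young for the double deletion, and 4.3 ± 0.428 aged and 4.05 ± 0.462 young for wild type. The ratio of CLN3 to WHI5 thus overlapped between ages in every strain (exact permutation p = 0.9, 0.5 and 0.5, two-sided).

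CLN1 and CLN2, the G1 cyclin pair that starts budding, changed little with age. The log2 difference of CLN2 was 0.05 ± 0.0738 for msn2 deletion, 0.13 ± 0.0766 for the double deletion and 0.01 ± 0.0741 for wild type, and none of the 3 passed. In wild type CLN2 stood at 84.1, 75.4 and 86.3 CPM aged and 80.7, 87.8 and 75.1 CPM young. With library totals the 3 differences of CLN2 were 0.64, 0.56 and 0.53, all past the threshold, which is close to the shift of all genes. CLN1 rose in the double deletion, with 72.7, 79.9 and 74 CPM aged above 61, 59.4 and 62.3 CPM young (0.31 ± 0.0789, adjusted p = 0.00232 by edgeR), and in msn2 deletion its difference was 0.03 ± 0.0749, or 0.63 with library totals, which passed. Wild type had 67.1, 67 and 72.7 CPM aged and 67.3, 80.4 and 84.2 CPM young, a difference of -0.16 ± 0.0747 (adjusted p = 0.0603). That value passed as lower by DESeq2 (-0.19, adjusted p = 0.0254), with RLE size factors (-0.19, 0.034), and without young wild-type replicate 1 (-0.25) or aged replicate 3 (-0.20). It passed as higher with library totals (0.35, adjusted p = 0.0015 by edgeR), so its direction depended on the scaling. The age effect of CLN1 was higher in the double deletion than in wild type by 0.47 ± 0.109 (adjusted p = 0.00516 by edgeR), a call lost with library totals (0.39, adjusted p = 0.0507).

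CLB5, the main S-phase cyclin gene, fell in all 3 strains, and every aged library lay below every young one of its strain. In msn2 deletion it stood at 45.5, 43.4 and 48.6 CPM aged and 65.5, 70.4 and 68.1 CPM young (-0.57 ± 0.0727, adjusted p = 1.2e-06 by edgeR). The double deletion had 35, 34.4 and 32.2 CPM aged and 64.6, 64.9 and 60.1 CPM young (-0.90 ± 0.0813). Wild type had 38.3, 39.7 and 37.1 CPM aged and 67.9, 80.9 and 71.5 CPM young (-0.94 ± 0.0734, adjusted p = 2.98e-09). With library totals CLB5 did not pass in msn2 deletion (0.02, adjusted p = 0.819 by edgeR), but it remained lower in the double deletion (-0.47) and wild type (-0.42). The difference of this age effect between msn2 deletion and wild type was 0.37 ± 0.103 (adjusted p = 0.0212 by edgeR). It was lost without young msn2 deletion replicate 1 (0.34), aged msn2 deletion replicate 3 (0.32), young wild-type replicate 2 (0.29) or aged wild-type replicate 3 (0.34), with adjusted p of 0.0528 to 0.0569.

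CLB6, the partner of CLB5, also fell, at a lower level and with a larger error. In msn2 deletion it stood at 15.6, 16.5 and 17.4 CPM aged and 20.3, 24.1 and 19.5 CPM young (-0.37 ± 0.137, adjusted p = 0.0213 by edgeR). The double deletion had 11.9, 12.2 and 13.7 CPM aged and 19.4, 20.3 and 13.2 CPM young (-0.48 ± 0.167, adjusted p = 0.0186), and the groups overlapped at young replicate 3. Wild type had 16.2, 14 and 14.6 CPM aged and 18, 25 and 21.8 CPM young (-0.53 ± 0.138, adjusted p = 0.00238). With library totals the call was lost in msn2 deletion (0.22, adjusted p = 0.088 by edgeR), the double deletion (-0.04) and wild type (-0.01). The call for msn2 deletion was also lost without young replicate 2 (-0.27) or aged replicate 1 (-0.33). That for the double deletion was lost without young replicate 1 or 2 (-0.41 and -0.36) or aged replicate 1 or 2 (-0.43 and -0.46). With all libraries thinned to the smallest total the CLB6 call was lost in every strain. The values were -0.37 in msn2 deletion, -0.41 in the double deletion and -0.39 in wild type (adjusted p 0.0722 to 0.0853 by edgeR). Within a library the count of CLB5 over that of CLB6 was 2.78 ± 0.138 in aged and 3.21 ± 0.288 in young msn2 deletion, 2.7 ± 0.311 aged and 3.69 ± 0.746 young for the double deletion, and 2.58 ± 0.238 aged and 3.43 ± 0.304 young for wild type (SD, n = 3 each). CLB5 was thus lower relative to CLB6 in aged cells, with no overlap in any strain (exact permutation p = 0.1 each, two-sided, the smallest that 3 against 3 libraries can give). In msn2 deletion the groups nearly met, at 2.91 for aged replicate 1 and 2.92 for young replicate 2.

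The mitotic cyclin pair moved in opposite directions in every strain, and no pair of aged and young groups overlapped. In msn2 deletion CLB1 was at 172, 186 and 171 CPM aged and 132, 138 and 131 CPM young (0.40 ± 0.0765, adjusted p = 0.000135 by edgeR). CLB2 there was at 84, 86.8 and 86.5 CPM aged and 149, 142 and 139 CPM young (-0.74 ± 0.0786, adjusted p = 1.21e-07). The double deletion had CLB1 at 232, 209 and 259 CPM aged and 126, 129 and 120 CPM young (0.90 ± 0.078), and CLB2 at 106, 99.5 and 109 CPM aged and 152, 149 and 126 CPM young (-0.44 ± 0.081). Wild type had CLB1 at 209, 220 and 226 CPM aged and 173, 170 and 179 CPM young (0.33 ± 0.0763), and CLB2 at 104, 109 and 115 CPM aged and 153, 170 and 149 CPM young (-0.53 ± 0.0783). With library totals CLB1 remained higher (0.99, 1.33 and 0.83 for msn2 deletion, double deletion and wild type), and CLB2 passed in none of the 3 (-0.15, -0.01 and -0.01).

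The ratio of CLB1 to CLB2 does not depend on the scaling. It was 2.04, 2.14 and 1.98 in aged and 0.882, 0.972 and 0.943 in young msn2 deletion libraries. The double deletion had 2.19, 2.1 and 2.38 aged and 0.826, 0.867 and 0.953 young, and wild type 2.01, 2.02 and 1.96 aged and 1.13, 0.998 and 1.2 young. In all 9 aged libraries CLB1 had at least 1.96 times the counts of CLB2, and in all 9 young libraries at most 1.2 times. The difference in log2 ratio was 1.14 for msn2 deletion, 1.33 for the double deletion and 0.85 for wild type (exact permutation p = 0.1 each, two-sided, the smallest possible). The coding sequences of CLB1 and CLB2 are 61.7% identical over their alignment, with a longest shared run of 17 bases against reads of 150 bases. Those of CLN1 and CLN2 are 61% identical and those of CLB5 and CLB6 55%, with longest shared runs of 17 and 15 bases. CLB1 and CLB6 lie tail to tail with 307 bases between their coding ends, and CLB2 and CLB5 with 746 bases. Reads from a long transcript end could be counted for the neighbour if strand was not used, and the counting options are not given in the sources used here.

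**Figure D2:**
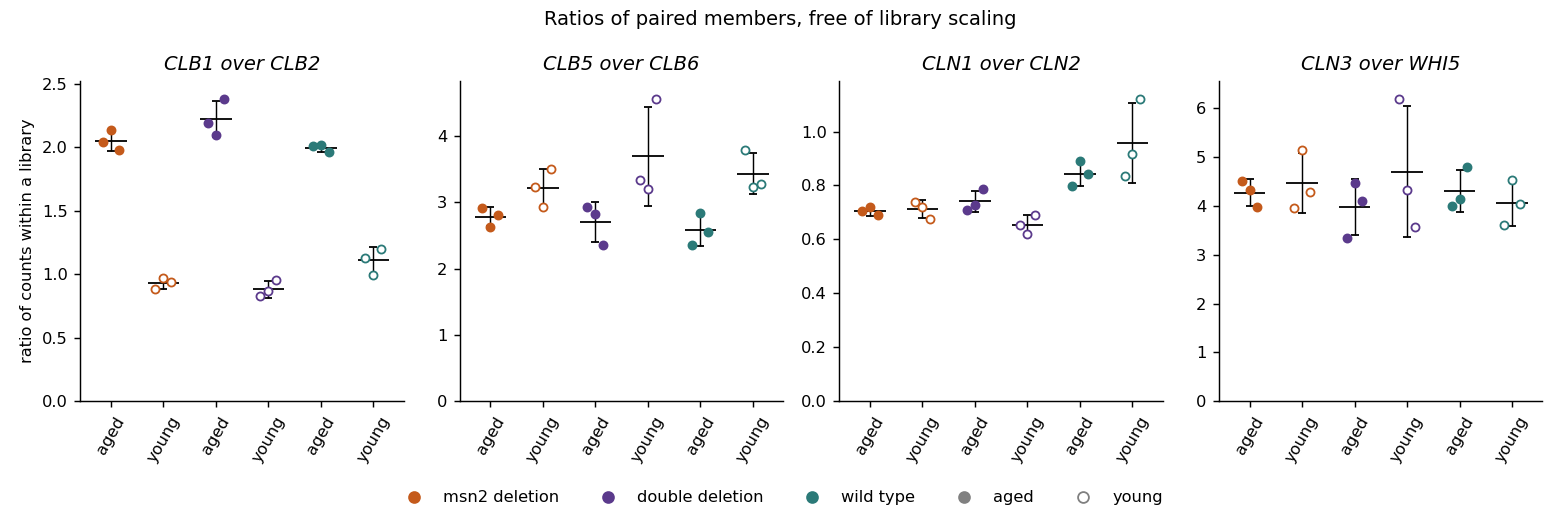
Ratio of the counts of paired genes within each library, on linear axes from 0, with aged libraries as filled and young libraries as open circles, and the mean and SD of 3 libraries in black. CLB1 over CLB2 lay at 1.96 or above in aged and at 1.2 or below in young libraries of all 3 strains, whereas CLN3 over WHI5 overlapped between ages.

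In all, 5 ratios were compared in 9 contrasts, 45 comparisons, and none of them can reach an exact permutation p under 0.1 with 3 libraries a group, before or after adjustment. The ratio of CIP1 to SIC1 was 0.156 ± 0.0204 in aged and 0.0721 ± 0.00913 in young msn2 deletion, 0.157 ± 0.0183 aged and 0.0722 ± 0.0167 young in the double deletion, and 0.667 ± 0.0567 aged and 0.193 ± 0.0227 young in wild type (SD, n = 3 each).

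CIP1, an inhibitor of the Cln-bound kinase, rose in all 3 strains, and most in wild type. In msn2 deletion it was at 12.3, 13 and 12.1 CPM aged and 8.26, 7.72 and 10.1 CPM young, a change of 0.52 ± 0.13 (adjusted p = 0.00138 by edgeR). That call was lost with all libraries thinned to the smallest total (0.45, adjusted p = 0.0627 by edgeR). The double deletion had 10.7, 12 and 11.5 CPM aged and 7.9, 6.3 and 10.2 CPM young, a change of 0.48 ± 0.158 (adjusted p = 0.014), which was lost without young replicate 2 (0.32, adjusted p = 0.0751). Wild type had 51.3, 45.9 and 49.5 CPM aged and 13.3, 13.2 and 15.1 CPM young, a 3.52-fold difference (log2 1.82 ± 0.123, adjusted p = 3.27e-10). The age effect on CIP1 differed from that of wild type by -1.29 ± 0.178 for msn2 deletion and by -1.34 ± 0.198 for the double deletion (adjusted p = 0.000102 and 0.000115 by edgeR). Between the deletion strains the difference was -0.05 ± 0.204, which did not pass. By these tests of the difference 3 of 10 members passed for msn2 deletion against wild type, where 14.8% of all genes did (1 higher, 7.54% of all genes; 2 lower, 7.23%). For the double deletion against wild type 4 of 10 passed, where 16.2% did (2 higher, 7.17%; 2 lower, 8.99%). Between the deletion strains 1 of 10 passed, CLB1, where 6.18% did (1.71% higher).

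SIC1, the inhibitor of Clb-bound kinase, was lower with age in both deletion strains and did not pass in wild type. In msn2 deletion it was at 82.1, 72.3 and 86.4 CPM aged and 122, 117 and 122 CPM young (-0.59 ± 0.0764, adjusted p = 1.56e-06 by edgeR), and the double deletion had 76.6, 76.7 and 65.6 CPM aged and 117, 108 and 113 CPM young (-0.63 ± 0.0807). Wild type had 73.8, 76.3 and 70.3 CPM aged and 71.5, 75.8 and 69.2 CPM young (0.03 ± 0.077). With library totals the change was 0.0 in msn2 deletion, lost its call in the double deletion (-0.20, adjusted p = 0.0543) and was a rise in wild type (0.53). The differences of the age effect from wild type, in which the shift of all genes largely cancels, were -0.61 ± 0.108 for msn2 deletion and -0.66 ± 0.111 for the double deletion (adjusted p = 0.00102 and 0.000404 by edgeR). The aged levels of the 3 strains overlapped, whereas every young deletion library lay above every young wild-type library.

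**Figure D3:**
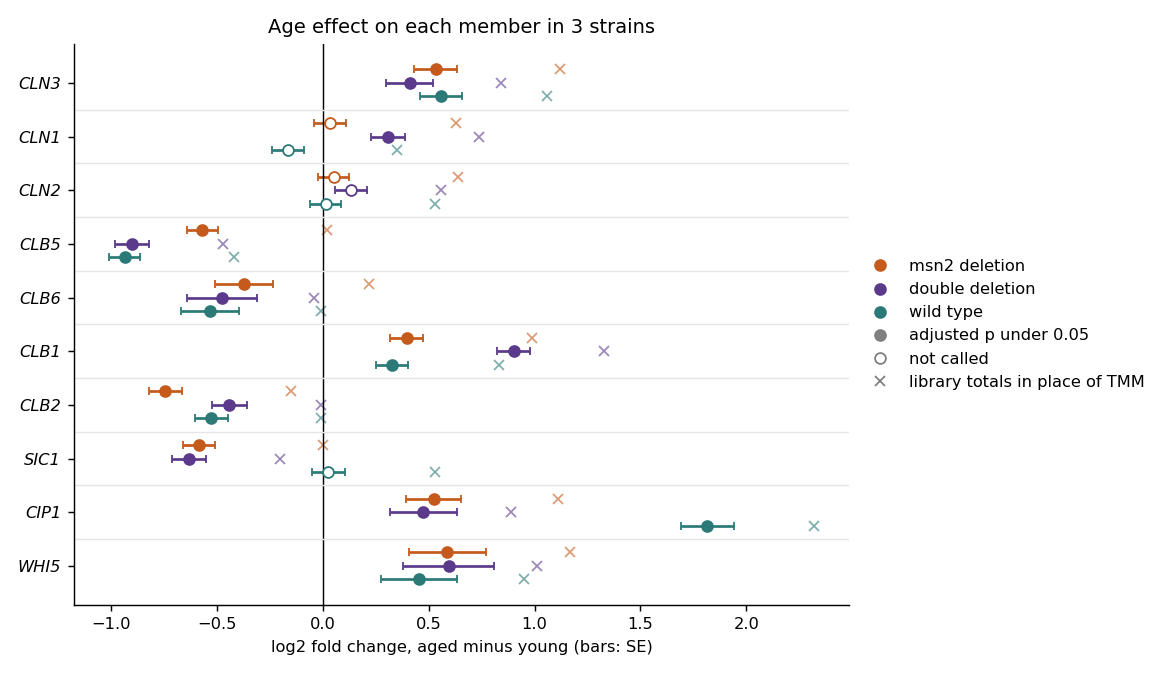
Log2 fold change of aged minus young cells for each gene in 3 strains, with SE bars, filled where the adjusted p was under 0.05, and crosses for the same value scaled by library totals alone. CIP1 stood at 0.52 for msn2 deletion and 0.48 for the double deletion, against 1.82 for wild type, and CLB1 lay above 0 while CLB2 lay below it with TMM factors.

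The deletions were then compared with wild type at each age, which asks what loss of the stress factors does to these transcripts. In young cells SIC1 rose and CIP1, CLB1 and CLN1 fell in both deletion strains. In msn2 deletion these 4 of 10 members passed, where 30.5% of all genes did (15% higher, 15.5% lower). In the double deletion 6 of 10 passed, where 37.7% did (17.9% higher, 19.9% lower), with CLN2 higher and CLB5 lower as well. In aged cells CIP1, CLB1 and CLB2 fell and CLB5 rose in msn2 deletion, 4 of 10 where 30% of all genes passed (13.9% higher, 16% lower). In the aged double deletion CIP1 and CLN3 fell and CLN2 rose, 3 of 10 where 36.3% passed (16.6% higher, 19.7% lower). All comparisons at one age with wild type share the same 3 wild-type libraries.

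CIP1 fell at both ages. In aged cells it stood at 12.3, 13 and 12.1 CPM in msn2 deletion and 10.7, 12 and 11.5 CPM in the double deletion, against 51.3, 45.9 and 49.5 CPM in wild type. The log2 fold changes were -1.97 ± 0.12 and -2.11 ± 0.144 (adjusted p = 2.46e-10 and 4.17e-10 by edgeR), or 0.255 and 0.232 of the wild-type level. In young cells the changes were -0.68 ± 0.133 for msn2 deletion and -0.77 ± 0.133 for the double deletion, with every deletion library below every wild-type library. CIP1 is the member with 3 STRE motifs shown above. SIC1 also held 3 and was higher in young deletion cells, whereas CLN1 with 2 and CLB1 with 1 were lower there. CLN3, CLB2 and WHI5, with 1 each, did not pass in young cells. In aged cells CLB1 and CLB2 were lower in msn2 deletion (-0.31 and -0.35) and CLN3 in the double deletion (-0.29). SIC1, CLN1 and WHI5 did not pass in aged cells. Of the members without a STRE, CLN2 and CLB5 passed in the young double deletion (0.20 and -0.22), and CLB6 passed at neither age. CLB5 was also higher in aged msn2 deletion (0.26) and CLN2 in the aged double deletion (0.32). The part of the motifs in these changes was not tested.

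SIC1 was higher in young deletion cells, at 122, 117 and 122 CPM in msn2 deletion and 117, 108 and 113 CPM in the double deletion, against 71.5, 75.8 and 69.2 CPM in young wild type. The log2 fold changes were 0.74 ± 0.0773 and 0.64 ± 0.0772 (adjusted p = 6.96e-07 and 2.89e-06 by edgeR), and were 0.79 and 0.81 with library totals. In aged cells the values were 0.13 ± 0.0762 and -0.01 ± 0.0805, and neither passed, though the value in msn2 deletion did with library totals (0.26, adjusted p = 0.029 by edgeR). Daughter-cell genes, which are active mainly in daughters after division, were higher in the same young libraries. Of 10 such markers 7 rose for young msn2 deletion (median 0.39) and 9 for the young double deletion (median 0.57), where 15% and 17.9% of all genes were higher and the median of all genes was -0.01 in both. Their summed level was 1400 to 1610 CPM in young msn2 deletion and 1600 to 1940 CPM in the young double deletion, against 1050 to 1150 CPM in young wild type. DSE4 and SCW11, genes of cell wall enzymes known for the separation of daughters, changed by 0.90 ± 0.0775 and 0.82 ± 0.0825 in msn2 deletion. In aged cells the sums were 1300 to 1450 CPM in msn2 deletion and 1780 to 2100 CPM in the double deletion, against 1230 to 1370 CPM in wild type. These markers were thus also high in the aged double deletion, where SIC1 did not pass against wild type. Their part in the SIC1 result was not tested.

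CLB1 was lower in young deletion cells, at 132, 138 and 131 CPM in msn2 deletion and 126, 129 and 120 CPM in the double deletion, against 173, 170 and 179 CPM in wild type (-0.38 ± 0.0767 and -0.48 ± 0.0768, adjusted p = 0.00109 and 9.41e-05 by edgeR). In aged cells it was lower in msn2 deletion (-0.31 ± 0.0761) and not in the double deletion (0.10 ± 0.0771). The age effect of CLB1 was higher in the double deletion than in wild type by 0.58 ± 0.109 (adjusted p = 0.00107 by edgeR). It was also higher than in msn2 deletion by 0.51 ± 0.109 (adjusted p = 0.00607). The second of these was lost with library totals (0.34, adjusted p = 0.112) and with all libraries thinned to the smallest total (0.44, 0.0702). The aged call in msn2 deletion was lost with library totals (-0.17, 0.149).

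CLB2 did not pass in young cells of either deletion strain (-0.13 ± 0.0783 and -0.14 ± 0.0782). In aged msn2 deletion it fell, at 84, 86.8 and 86.5 CPM against 104, 109 and 115 CPM in aged wild type (-0.35 ± 0.0782, adjusted p = 0.00213 by edgeR). In the aged double deletion it was at -0.06 ± 0.0808. The log2 ratio of CLB1 to CLB2 in young cells differed from wild type by -0.25 for msn2 deletion and by -0.33 for the double deletion, without overlap (exact permutation p = 0.1 each, two-sided). In aged cells it differed by 0.04 for msn2 deletion, with overlap (exact permutation p = 0.4), and by 0.15 for the double deletion, without overlap (exact permutation p = 0.1).

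In the G1 cyclin pair CLN1 was lower relative to CLN2 in the deletion strains. CLN1 was lower in young cells, at 64.3, 64.2 and 60.6 CPM in msn2 deletion and 61, 59.4 and 62.3 CPM in the double deletion, against 67.3, 80.4 and 84.2 CPM in wild type (-0.29 ± 0.0754 and -0.34 ± 0.0754). These calls were lost with library totals (-0.24 and -0.17), and that of msn2 deletion without young wild-type replicate 3 (-0.23, adjusted p = 0.0509 by edgeR). In young cells the log2 fold change of CLN2 was 0.13 ± 0.0744 for msn2 deletion and 0.20 ± 0.0743 for the double deletion. The value for the double deletion passed (adjusted p = 0.0437 by edgeR). The call was lost with a replicate block (adjusted p = 0.0578), RLE size factors (0.05), a fit of only the libraries compared (0.0916) and thinning (0.0841). It was also lost without young wild-type replicate 1 or 3 (0.19 and 0.14) or young double deletion replicate 1 or 2 (0.19 and 0.18). In the aged double deletion CLN2 was at 102, 110 and 94.2 CPM against 84.1, 75.4 and 86.3 CPM in aged wild type (0.32 ± 0.0764, adjusted p = 0.00283). The ratio of CLN1 to CLN2 was 0.712 ± 0.0337 for young msn2 deletion and 0.655 ± 0.0346 for the young double deletion, against 0.957 ± 0.148 in young wild type, and 0.704 ± 0.0165 in aged msn2 deletion and 0.741 ± 0.0397 in the aged double deletion, against 0.843 ± 0.0452 in aged wild type (SD, n = 3 each). The ratio was lower in every deletion library than in any wild-type library of the same age (exact permutation p = 0.1 for each of the 4 comparisons, two-sided).

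CLB5 was at 45.5, 43.4 and 48.6 CPM in aged msn2 deletion against 38.3, 39.7 and 37.1 CPM in aged wild type (0.26 ± 0.0727, adjusted p = 0.0115 by edgeR). The call was lost without aged wild-type replicate 3 (0.23, adjusted p = 0.0522) or aged msn2 deletion replicate 3 (0.21, 0.06). In the young double deletion CLB5 was at -0.22 ± 0.0728, a call lost with library totals (-0.04), without young wild-type replicate 2 (-0.14) or without young double deletion replicate 3 (-0.17). That call was also lost in a fit of only the libraries compared (-0.19, adjusted p = 0.156 by edgeR) and with thinning (-0.24, 0.0594). CLN3 was at 40.8, 47.7 and 34.7 CPM in the aged double deletion against 52, 46.2 and 50.6 CPM in aged wild type (-0.29 ± 0.108, adjusted p = 0.0433 by edgeR). These groups overlapped, and the call was lost without aged wild-type replicate 1 or 3 (-0.25 and -0.27) or aged double deletion replicate 1 or 3 (-0.29 and -0.18), with library totals (-0.19, adjusted p = 0.315) and with all libraries thinned to the smallest total (-0.30, 0.0648). CLB6 and WHI5 passed in none of the 4 comparisons with wild type, with log2 values of -0.29 to 0.15 for CLB6 and -0.29 to -0.07 for WHI5. In the young double deletion WHI5 passed without young double deletion replicate 3 (-0.56, adjusted p = 0.0203 by edgeR). CLB6 passed there without young double deletion replicate 2 (-0.41, 0.0423) or young wild-type replicate 1 (-0.41, 0.0316).

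**Figure D4:**
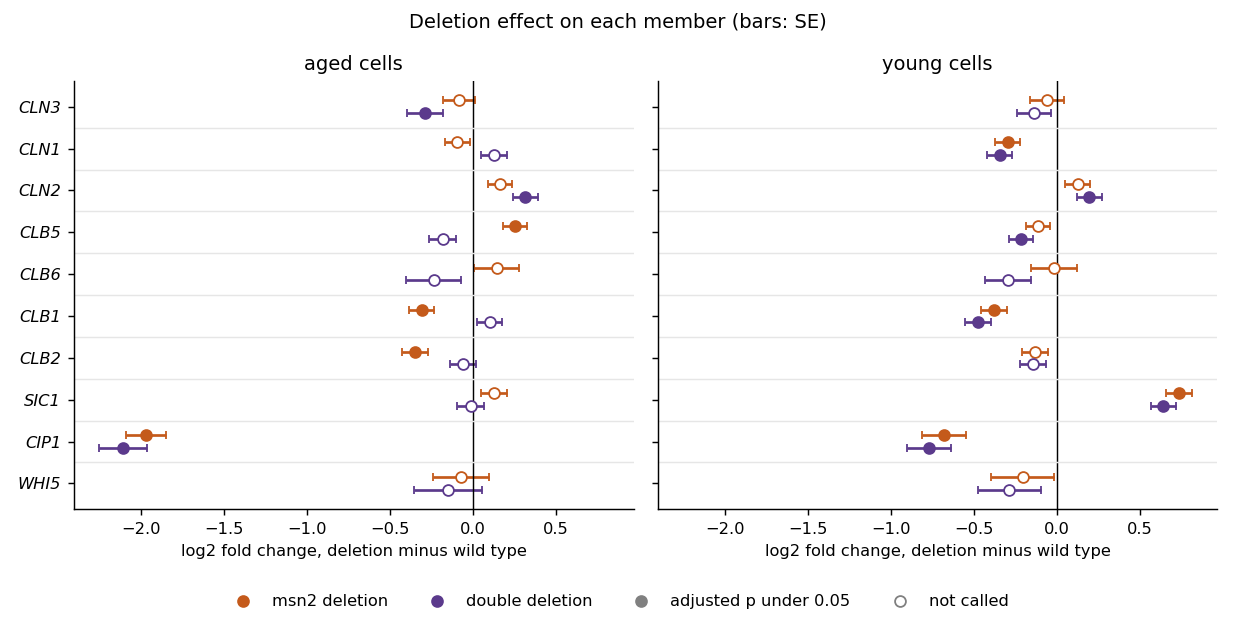
Log2 fold change of each deletion strain minus wild type for each gene in aged and in young cells, with SE bars, filled where the adjusted p was under 0.05. CIP1 lay at -1.97 and -2.11 in aged cells and at -0.68 and -0.77 in young cells, and SIC1 at 0.74 and 0.64 in young cells.

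The double deletion and msn2 deletion strains were compared as well. In young cells 0 of 10 members passed by edgeR or by DESeq2, and 0 had an unadjusted p under 0.05, where 0.454% of all genes passed. In aged cells CLB1 (0.41 ± 0.0772), CLB2 (0.29 ± 0.0809) and CLN1 (0.22 ± 0.0782) were higher in the double deletion and CLB5 was lower (-0.44 ± 0.081), 4 of 10 where 24.8% of all genes passed (11.3% higher, 13.5% lower). The call for CLB2 was lost without aged double deletion replicate 3 (0.26, adjusted p = 0.058 by edgeR). That for CLN1 was lost without any 1 of the 6 libraries (0.18 to 0.25, adjusted p 0.0603 to 0.134 by edgeR). The CLN1 call was also lost with library totals (0.18, adjusted p = 0.19), a replicate block (0.22, 0.0529), a filter of 10 CPM in 3 libraries (0.21, 0.0532) and thinning (0.20, 0.13). CLB6 was at -0.38 ± 0.164 and did not pass, but did with library totals (-0.42, adjusted p = 0.0323 by edgeR) or in a fit of only these 6 libraries (-0.36, 0.0305). Without aged double deletion replicate 3 there were 2 calls among the 10 genes.

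Levels per length, in CPM per kb of coding sequence, put CLB1 highest in all aged groups, at 124 ± 5.77 in msn2 deletion, 165 ± 18 in the double deletion and 154 ± 6.08 in wild type (SD, n = 3 each). SIC1 followed it in all 3. In young cells SIC1 was highest in msn2 deletion (141 ± 3.69) and the double deletion (132 ± 5.16), whereas CLB1 (123 ± 3.1) led in young wild type, followed by CLB2 (107 ± 7.75). In aged wild type the order was CLB1, SIC1, CLB2, CLN2, CIP1, CLN1, CLB5, CLN3, CLB6 and WHI5. Of the neighbours in it, CIP1 (42.7 ± 2.41) and CLN1 (42 ± 1.98), CLB5 (29.3 ± 0.979) and CLN3 (28.5 ± 1.74), and CLB6 (13.1 ± 1.01) and WHI5 (13.1 ± 1.46) did not differ beyond their SD. CIP1 had the lowest mean of the 10 in all 4 deletion groups, at 7.11 to 10.9, but did not differ from WHI5 (7.75 to 11.8) beyond their SD in young msn2 deletion and in both ages of the double deletion. In the aged double deletion CIP1 (9.94 ± 0.587) also did not differ from CLB6 (11 ± 0.855) beyond their SD.

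For each member the genes with the most similar pattern over the 6 group means were found by the root-mean-square difference of centred log2 CPM, among 5599 genes whose log2 CPM averaged 3 or more. ALD3, PIC2 and EMI2 were nearest to CIP1, at 0.18, 0.252 and 0.264, where the median gene stood at 0.893. PSF3, HSH49 and MED2 were nearest to CLB5 (0.0708 to 0.0748, median gene 0.459). ATP5, SVF1 and HEM14 were nearest to CLB1 (0.0875 to 0.102, median gene 0.391), and PAN5, MTF1 and BUD16 to CLB2 (0.039 to 0.0438, median gene 0.366). ENA5, YHR130C and UBP7 were nearest to SIC1, at 0.0495 to 0.0709. For CLN1, CLN2, CLN3, CLB6 and WHI5, whose group means spanned at most 0.788, OAF3, BUD7, PTC6, YMR052C-A and DCK1 were nearest.

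Other genes of the cell cycle were counted by list, for aged minus young cells unless another comparison is named, with a median of 0.03 over all genes in each strain. Of all genes 36.6% rose and 33% fell with age for msn2 deletion, 31.2% rose and 29.9% fell for the double deletion, and 33.3% rose and 30.6% fell for wild type, so a list with about 1 in 3 of its genes called in each direction is near the background. Of the other B-type cyclin genes CLB3 and CLB4, CLB3 had a log2 fold change of -0.09 ± 0.0625 in msn2 deletion (not past the threshold), -0.18 ± 0.0687 in the double deletion and -0.38 ± 0.0625 in wild type. CLB4 passed only in wild type (-0.44 ± 0.0869), and its age effects did not pass the test of a difference from wild type. FAR1, the gene of another inhibitor, rose in msn2 deletion (0.30 ± 0.0813), the double deletion (0.27 ± 0.0829) and wild type (0.24 ± 0.0814). Of 24 targets of the G1/S factors 6 rose and 11 fell in msn2 deletion (median -0.16), 5 rose and 7 fell in the double deletion (0.02), and 4 rose and 9 fell in wild type (-0.08). MCD1, a cohesin gene, changed by -0.55, -0.26 and -0.71 in the 3 strains. RNR3, better known as a gene switched on by DNA damage, changed by 1.37, 1.32 and 1.44. In the aged double deletion against aged wild type 11 of these 24 rose and 1 fell, with a median of 0.21, against 16.6% higher, 19.7% lower and a median of -0.01 over all genes. Of 11 regulators of G1/S transcription 6 rose and 4 fell in msn2 deletion, 3 rose and 3 fell in the double deletion, and 4 rose and 4 fell in wild type. SRL3, a relative of WHI5, rose by 1.16, 0.81 and 1.29 in these strains, and MBP1, the DNA-binding part of MBF, changed by -0.90, -0.87 and -0.61. NRM1, a corepressor of MBF, fell in msn2 deletion (-0.34 ± 0.113) and wild type (-0.88 ± 0.112), and its value in the double deletion was 0.04 ± 0.127. The age effect of NRM1 differed from that of wild type by 0.91 ± 0.169 for the double deletion (adjusted p = 0.000902 by edgeR). For msn2 deletion it differed by 0.53 ± 0.159 (adjusted p = 0.0291). Between the deletion strains the difference was 0.38 ± 0.17, which did not pass (adjusted p = 0.217).

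For the later stages the shares of all genes given above apply to each count with age. Of 18 targets of the G2/M factors 5 rose and 8 fell in msn2 deletion (median -0.12), 5 rose and 7 fell in the double deletion (-0.07), and 1 rose and 6 fell in wild type (-0.01). MYO1, a myosin of the bud neck, changed by -1.03 ± 0.0962, -1.01 ± 0.0971 and -0.89 ± 0.0959. The list of 10 histone genes included HTZ1 and HHO1. Of these 10, 8 fell and 1 rose in aged msn2 deletion (median -0.63). In the aged double deletion 4 fell and 2 rose (0.03), and in aged wild type 8 fell (-0.53). All 10 histone genes fell in young msn2 deletion (median -0.47) and likewise in the young double deletion (-0.50) against young wild type, where 15.5% and 19.9% of all genes fell and the median of all genes was -0.01. HTA2, a gene of histone H2A, changed with age by -1.46, -1.18 and -1.18 in msn2 deletion, double deletion and wild type. Of 10 cell cycle transcription factor genes 5 rose and 4 fell in msn2 deletion, 5 rose and 3 fell in the double deletion, and 4 rose and 4 fell in wild type. NDD1, the coactivator of CLB2 transcription, changed by -0.60, -0.62 and -0.50, and SWI5, the gene of an activator of SIC1, by -0.50, -0.40 and -0.33. Of 14 replication licensing genes 3 rose and 4 fell in msn2 deletion, 2 rose and 4 fell in the double deletion, and 5 rose and 6 fell in wild type, with CDC6 at -0.70, -1.12 and -0.78. In the young double deletion against young wild type 8 of these 14 rose and 1 fell (median 0.24), where 17.9% of all genes rose and 19.9% fell. Of 9 genes of the kinase and its modifiers 6 rose and 1 fell in msn2 deletion, 3 rose and 1 fell in the double deletion, and 2 rose and 2 fell in wild type. CKS1, a subunit gene of the Cdc28 complex, was at -0.01 and -0.11 in the deletion strains, neither past the threshold, and at -0.67 ± 0.123 in wild type. Of 14 mitotic exit genes 5 rose and 3 fell in msn2 deletion, 8 rose and 3 fell in the double deletion, and 4 rose and 2 fell in wild type, with SLK19, a spindle protein gene, at -1.29, -1.28 and -1.27. Of the 10 daughter-cell markers 2 rose and 3 fell in msn2 deletion (median -0.17), 4 rose and 2 fell in the double deletion (0.11), and 5 rose and 1 fell in wild type (0.26).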

How the data were processed

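Poly(A) RNA of 18 yeast libraries was sequenced with reads of 150 bases. The authors deposited expected counts per gene in 1 table of 7118 features, in which 54.6% of values above 0 were not whole to 2 decimals. Per the submitters' processing notes, the tools were STAR 2.7.6a, bcl2fastq, cutadapt 2.6 and, from Subread 1.6.2, featureCounts, with builds R64 and sacCer3. The counting options and use of strand are not given in the sources used here. Fractional counts can arise where reads are shared between features, which could affect close paralogs and overlapping genes.

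Expected counts were rounded to whole numbers. Groups came from the labels. edgeR 4.0.16 in R 4.3.3 kept 6833 features (filterByExpr), scaled with TMM and fitted 18 libraries in 6 groups with 12 residual degrees of freedom (common biological coefficient of variation 0.0922). The quasi-likelihood test gave 12 contrasts, with Benjamini-Hochberg adjustment over all 6833 genes and a threshold of 0.05. SE is the size of the log2 fold change divided by the root of F. The fit was run on simulated counts in which a small set of genes changed, equally in both directions, in aged wild type only. Such counts cannot test the scaling between aged and young cells. Library totals of 4078400 to 41649952 counts gave members 53.5 to 10909.17 counts per library, so WHI5, CIP1 and CLB6 have the larger errors.

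The members and the 14 gene lists were chosen with earlier results of these data known. All 10 members are named. From each list the 3 genes with the smallest p in wild type, aged minus young, and the 2 with the smallest p between the aged double deletion and aged wild type could be named, and for each member the 3 genes most like it in group means. KIN82 in the mitotic exit list and RNR3 in the G1/S list are better known for other roles. Of the identifiers, 6040 matched locus tags of the RefSeq annotation and 1078 did not. Protein identity between paralogs was planned but not run, and coding sequence identity is given in its place. One planned promoter motif is not reported here. The alternatives were DESeq2 1.42.0, RLE size factors, library totals, other filters, a replicate block, fits of only the libraries compared and each replicate left out. A fit without the aged double deletion, ratio pairs and thinning to the smallest total were chosen after seeing the data.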

Additional observations from a re-analysis of the deposited data

Results flagged for a closer look

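For 5 of the 10 genes the change with age passed a test of its difference between some pair of strains. The test was the interaction term of edgeR's quasi-likelihood fit, adjusted over all genes, with 3 libraries in each group. The share of all genes that passed for some pair was not computed, so this count is not a result about the members. For CIP1 the difference in log2 fold change was -1.29 ± 0.178 between msn2 deletion and wild type (adjusted p = 0.000102) and -1.34 ± 0.198 between the double deletion and wild type (adjusted p = 0.000115). For SIC1 it was -0.61 ± 0.108 (adjusted p = 0.00102) and -0.66 ± 0.111 (adjusted p = 0.000404) for the same pairs. For CLB1 it was 0.58 ± 0.109 between the double deletion and wild type (adjusted p = 0.00107). Between the double deletion and msn2 deletion it was 0.51 ± 0.109 (adjusted p = 0.00607), a call lost with library totals and with thinning. For CLN1 it was 0.47 ± 0.109 between the double deletion and wild type (adjusted p = 0.00516), a call lost with library totals (0.39, adjusted p = 0.0507 by edgeR). For CLB5 it was 0.37 ± 0.103 between msn2 deletion and wild type (adjusted p = 0.0212). The CLB5 call was lost in 4 fits with a single library left out (adjusted p 0.0528 to 0.0569 by edgeR). Among all genes 14.8% passed between msn2 deletion and wild type, 16.2% between the double deletion and wild type, and 6.18% between the deletion strains.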

How the results depend on the processing

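Of 1930 recomputed values of single genes, 70 lost the call, 18 gained it and 4 changed sign with a call in either fit. The other 1838 kept their side of the threshold. Of these 1838, 80 changed sign without passing in either fit, and the rest kept their direction. These 4 came where library totals replaced the TMM factors, for aged minus young, where the median of all genes moved up as well. In msn2 deletion CLB5 (0.02, adjusted p = 0.819 by edgeR), CLB6 (0.22, 0.088) and SIC1 (0.0, 0.995) no longer passed. In wild type CLN1, not called with TMM factors, passed as higher (0.35, 0.0015). Thinning all libraries to the smallest total left 5 members called with age in msn2 deletion, against 8. It left 7 in the double deletion, against 9, and 5 in wild type, against 7. For the difference of the age effect between the deletion strains it left 0, against 1. This alternative removes counts. WHI5 and CLB6 lost the call with age in all 3 strains, and CIP1 lost it in msn2 deletion. Leaving out single libraries gave 7 to 8 members with age for msn2 deletion, 6 to 9 for the double deletion and 6 to 8 for wild type. It gave 3 to 4 and 5 to 6 for young msn2 deletion and young double deletion against wild type, and 3 to 4 and 2 to 3 for the same strains in aged cells. Between the double deletion and msn2 deletion it gave 0 in young and 2 to 3 in aged cells, against 4. For differences of the age effect it gave 2 to 4 for msn2 deletion against wild type, 4 for the double deletion against wild type and 1 between the deletion strains. Deviations of same-numbered libraries from their group means had a median correlation of -0.000121 over 45 pairs, and 13 were over 0.1. The correlations varied with the groups compared. They were 0.0861 to 0.29 between aged and young wild type, and 0.0345 to 0.283 between young msn2 deletion and young wild type. Between aged msn2 deletion and aged wild type they were -0.392 to -0.029. With the replicate block there were 3 calls between the aged deletion strains, against 4, and 5 between the young double deletion and wild type, against 6. The other counts were as reported. The aged double deletion was the least deeply sequenced group, which limits what can be called in it for WHI5, CIP1 and CLB6. The cause of the other changes was not tested.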

Other observations

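Pho85 is another cyclin-dependent kinase of yeast, with its own cyclins. Of 12 genes of Pho85 and its cyclins 6 rose and 2 fell with age in msn2 deletion (median 0.17), 4 rose and 3 fell in the double deletion (median 0.06), and 4 rose and 1 fell in wild type (median 0.08), against a median of 0.03 over all genes. Of all genes 36.6% rose and 33% fell for msn2 deletion, 31.2% rose and 29.9% fell for the double deletion, and 33.3% rose and 30.6% fell for wild type, so the 4 that rose in wild type match the share of all genes. PCL5, a Pho85 cyclin gene, changed by 1.78 ± 0.0595, 0.98 ± 0.0624 and 1.20 ± 0.0587 on the log2 scale in these strains (SE, 3 libraries a group).

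Of 23 genes of the APC/C and SCF ubiquitin ligases, which mark cyclins and inhibitors for destruction, 8 rose and 9 fell with age in msn2 deletion (median -0.08), 7 rose and 8 fell in the double deletion (median -0.05), and 5 rose and 7 fell in wild type (median -0.07). The 5 that rose in wild type are a smaller share than that of all genes, and the other counts are close to it. APC11, a subunit gene of the APC/C, changed by -1.28 ± 0.14, -1.14 ± 0.147 and -1.10 ± 0.139, and ACM1, the gene of an APC/C inhibitor, by -0.69 ± 0.137, -0.54 ± 0.161 and -1.32 ± 0.137.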
